A study of Mus musculus with 82 samples.

Results

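The genes followed here through mouse mammary tumours are 10 that the mature fat cell is known for: Plin1, Adipoq, Lep, Fabp4, Cidec, Cidea, Retn, Cfd, Pparg and Lpl. They were taken by name from the count table, so they make up 10 of its 47480 genes, and all 10 passed the filter on low counts that kept 22847 genes. The series holds 82 libraries of untreated tumours, each labelled as an individual tumour of 1 of 13 models. The BALB/c strain gave 64 libraries of 9 models, namely 2208 (12 libraries), 2250 (11), 2225 (10), 2153 (7), 9263 (7), 4T1 (5), 2336 (5), 2224 (4) and T12 (3). The FVB strain gave 15 libraries of 3 models: KPB1-A (2), MMTV-PYMT (5) and MMTV-NEU (8). The single C57BL/6 model was E0771 (3). The labels give model, strain and tissue for these groups, and neither animal age nor transplant site. As background, MMTV-NEU and MMTV-PYMT are transgenic models whose oncogene is driven by the mouse mammary tumour virus promoter, which is active in mammary epithelium, and 4T1 and E0771 are transplantable mammary carcinoma lines.

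Mature adipocytes store triglyceride in a large lipid droplet and secrete hormones, and the mammary gland is embedded in a pad of white fat. The nuclear receptor Pparg, acting with C/EBP factors, drives fat cell differentiation and the expression of droplet proteins such as Plin1 and Cidec and of secreted products such as Adipoq (adiponectin), Lep (leptin), Retn (resistin) and Cfd (adipsin, complement factor D). Fabp4, Lpl, Pparg and Cidea are also known from other cells, among them macrophages, endothelium, muscle, brown fat and secretory epithelium. In RNA from a whole tumour, fewer cells of a type and less RNA per cell cannot be told apart.

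The DNA ahead of annotated start sites is shown first, for Adipoq and for each gene with a match to the motif searched. RefSeq promoter windows on GRCm38.p6 were matched for 7 of the 10 genes, with 10 windows of 250 bases before an annotated start (Adipoq, Lep, Retn, Cfd and Plin1 with 1 each, Cidec with 2 and Pparg with 3). Fabp4, Lpl and Cidea had no entry. On the same assembly, GENCODE M21 places Fabp4 at chr3:10204088-10208576 (minus strand), Lpl at chr8:68880491-68907448, Retn at chr8:3655770-3660110 and Cfd at chr10:79890853-79892655 (all plus strand), each a protein-coding gene. The windows below run 5′ to 3′ on the gene's strand, stop where an exon of any GENCODE M21 transcript begins, and carry matches to the letters TTGCNNAA, a C/EBP-like motif searched on both strands, in capitals. The Adipoq window, chr16:23146286-23146535 on the plus strand, is shown because Adipoq was the reference for the co-variation, and it holds no match.
Adipoq: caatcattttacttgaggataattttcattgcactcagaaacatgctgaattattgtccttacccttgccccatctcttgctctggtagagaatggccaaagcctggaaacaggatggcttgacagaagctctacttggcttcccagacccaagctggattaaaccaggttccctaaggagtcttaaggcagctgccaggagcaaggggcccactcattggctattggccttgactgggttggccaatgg
The stretch ahead of Plin1, chr7:79732904-79733026 on the minus strand, holds 1 match, and the other 127 bases of that window lie in a transcribed exon and are not shown.
Plin1: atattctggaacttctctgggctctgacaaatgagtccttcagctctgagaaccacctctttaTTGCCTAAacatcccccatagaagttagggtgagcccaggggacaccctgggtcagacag
The Lep stretch, chr6:29059971-29060219 on the plus strand, holds 1 match.
Lep: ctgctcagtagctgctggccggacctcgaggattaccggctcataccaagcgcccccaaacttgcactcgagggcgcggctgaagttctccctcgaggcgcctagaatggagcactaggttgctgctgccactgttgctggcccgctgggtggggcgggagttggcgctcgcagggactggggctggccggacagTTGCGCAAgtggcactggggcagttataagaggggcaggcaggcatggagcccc
The downstream Cidec start, chr6:113434765-113435014 on the minus strand, lies in an intron of the longer transcript and holds 1 match.
Cidec: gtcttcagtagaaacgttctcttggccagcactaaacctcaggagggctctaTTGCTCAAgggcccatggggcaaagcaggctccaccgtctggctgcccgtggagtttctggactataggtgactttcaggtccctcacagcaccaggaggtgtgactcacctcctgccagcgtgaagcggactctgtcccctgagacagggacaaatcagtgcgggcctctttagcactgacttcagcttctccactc
The downstream Pparg start, chr6:115421816-115422065 on the plus strand, is likewise intronic to the longer transcripts and holds 2 matches.
Pparg: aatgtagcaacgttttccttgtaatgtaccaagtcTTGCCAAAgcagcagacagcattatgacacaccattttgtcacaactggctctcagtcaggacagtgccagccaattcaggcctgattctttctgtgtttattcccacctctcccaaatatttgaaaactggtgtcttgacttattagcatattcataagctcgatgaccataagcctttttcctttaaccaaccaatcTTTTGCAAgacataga
The windows of Retn and Cfd, the upstream Cidec window and the other Pparg windows held no match and are not shown. So Plin1, Lep, Cidec and Pparg had a match, and Adipoq, Retn and Cfd had none. The letters TTGCNNAA were present in 4 of the 10 full windows and in 4 of the 7 genes, against 9.56% of 32851 windows and 10.8% of 27025 genes in the RefSeq table. Any relation of these letters to the co-variation of the genes was not tested. A longer pattern of 2 copies of AGGNCA with 1 base between them, the direct repeat read by Pparg with its partner Rxra, matched 0 of the 10 windows and 0.338% of all windows, and the single site AGGTCA, which can overlap it, matched 2 of the 10 and 14.0% of all. These matches are letters in a window, and no measurement here bears on whether a factor binds them.

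Library totals ran from 14444938 to 132712507 counts, and levels are given in CPM (counts-per-million of the library total). A count of 0 allows a level of up to 3 counts, which is 0.0226 to 0.208 CPM depending on depth, for counting error only. The tissue label was checked against epithelial markers: the summed CPM of Epcam, Krt8, Krt18, Cdh1, Cldn3, Cldn4 and Cldn7 lay between 852 and 6221 in 11 models, and between 252 and 402 in T12 and E0771. The labels do not say whether libraries of a model came from separate hosts, so each p-value covers only how these libraries vary, and that variation may be technical.

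Adipoq, Plin1, Cidec, Cfd, Lep and Retn were near 0 in most tumours and high in a few. Adipoq, the most widely used marker hormone of fat, ranged from 0 to 42.7 CPM with a median of 0.21 CPM, and 8 of 82 libraries had no count. It reached 10 CPM in 5 libraries, MMTV-NEU replicates 1, 3, 6 and 7 and MMTV-PYMT replicate 5. Cfd, a serine protease of the alternative complement pathway, was the most abundant of the 6 per kilobase of exon, with a mean over models of 15.04 CPM per kilobase against 2.04 for Adipoq and 0.133 for Lep. The 6 libraries with the most Plin1, the coat protein of the fat cell droplet, held 81.0% of its summed CPM, and the 6 libraries with the most of each gene held 70.1% for Adipoq, 71.2% for Cidec, 71.6% for Cfd, 71.7% for Retn and 73.4% for Lep. Lep was the least detected, at 0 in 35 libraries and above 1 CPM in 8. For comparison, the same share was 32.3% for Pparg, 35.2% for Cidea, 35.9% for Fabp4 and 41.9% for Lpl, genes that were detected in at least 80 libraries.

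**Figure D1:**
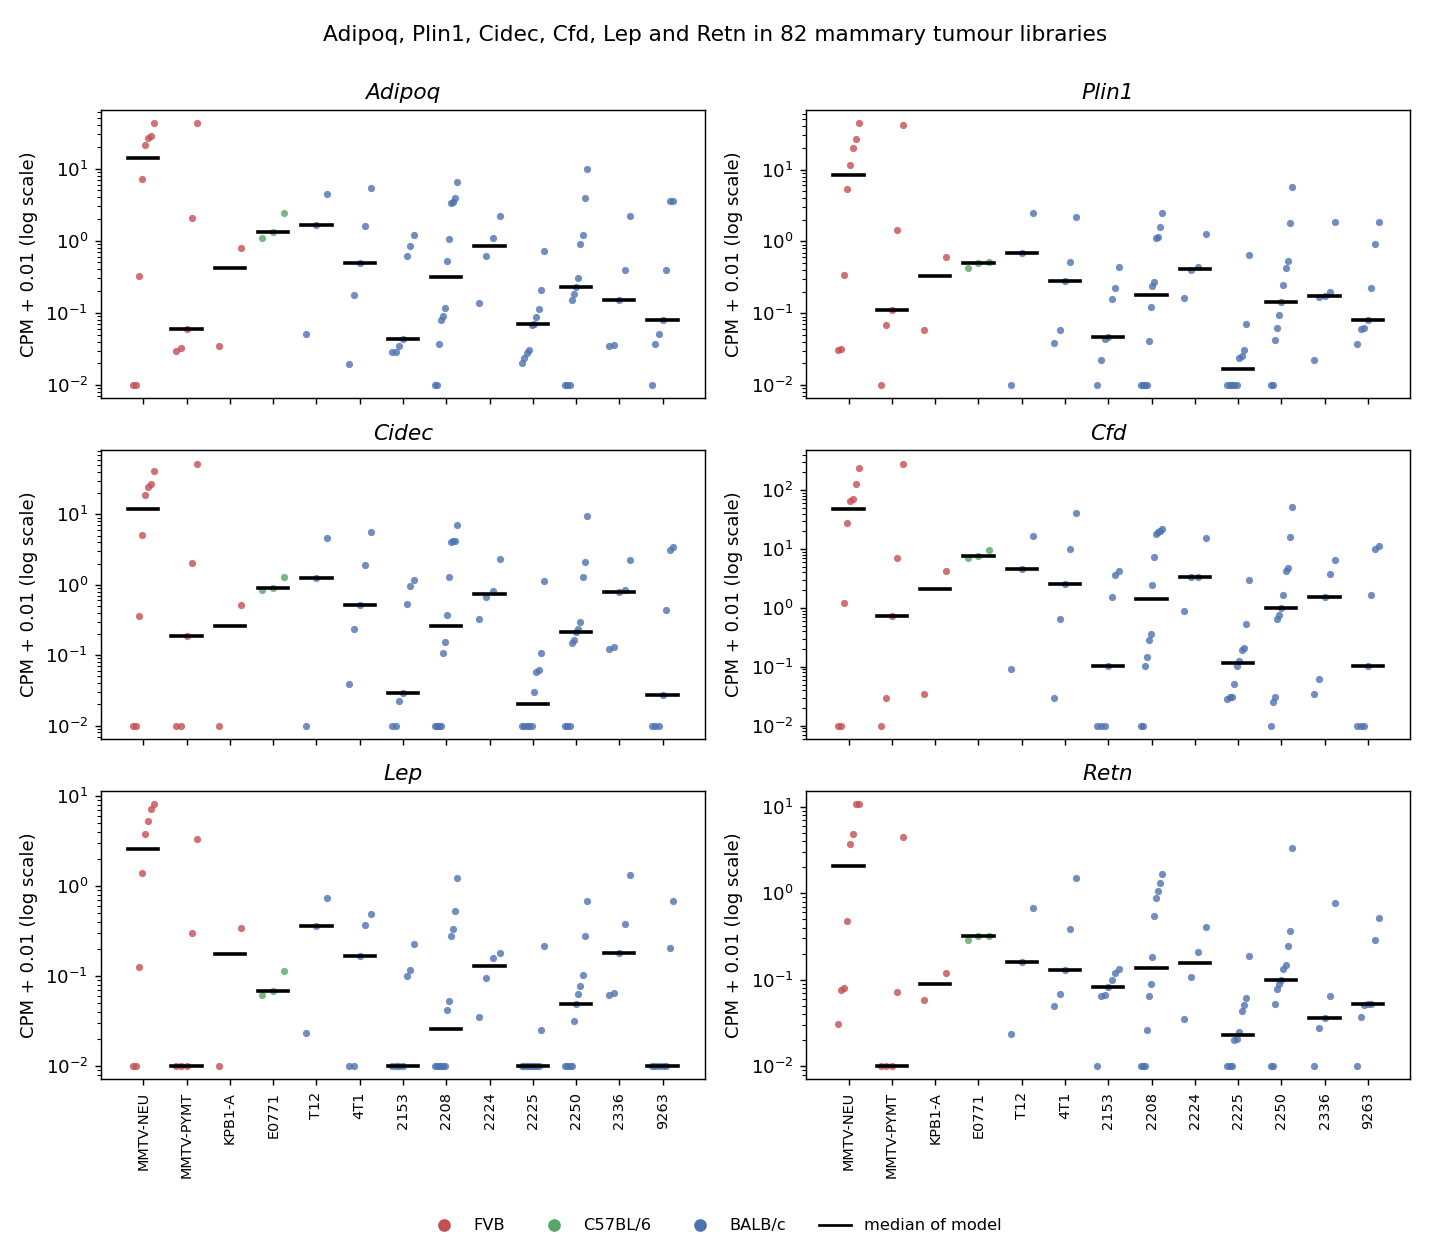
Levels of Adipoq, Plin1, Cidec, Cfd, Lep and Retn by model, as CPM + 0.01 on a log axis, with 1 point per library, colour for strain and a bar at the median. The high libraries of MMTV-NEU and MMTV-PYMT replicate 5 stand at the top of every panel, and the libraries of 2225 lie near the bottom.

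MMTV-NEU carried the highest mean CPM of all 13 models for these 6 genes and for Fabp4. On the mean log2 scale E0771 was the highest for Cfd (3.01 against 2.85 in MMTV-NEU) and T12 for Fabp4 (6.05 against 5.60). All 10 genes were higher in MMTV-NEU than the mean of the other 12 models (34.0% of all genes tested were higher in that comparison). Below, higher or lower in a model likewise means against that mean, unless another reference is named. E0771 had more Lpl (143 against 55.8 CPM) and Pparg (9.33 against 2.79 CPM) than MMTV-NEU by mean CPM. MMTV-PYMT, 9263 and 2224 had more Cidea (7.82, 5.44 and 3.92 against 3.78 CPM). Its 8 libraries were split: Adipoq was 0, 0 and 0.314 CPM in replicates 4, 5 and 2, was 7.12 CPM in replicate 8, and was 21.1, 26.7, 28.5 and 42.7 CPM in replicates 1, 3, 7 and 6. The 3 low libraries lay within the range of the BALB/c models, and the 4 highest lay above every BALB/c library, of which the highest, a 2250 tumour, had 9.86 CPM. Adipoq averaged 15.8 ± 16.2 CPM (SD, n = 8) and was 4.07 ± 0.77 (SE) higher on the log2 scale than the mean of the other models (edgeR quasi-likelihood test, adjusted p = 3.45e-06). Plin1 ran from 0.0209 to 44.4 CPM (median 8.35) and was 4.78 ± 0.73 higher on the log2 scale (edgeR, adjusted p = 2.49e-08). Lep, the satiety hormone secreted in proportion to fat stores, ran from 0 to 8.19 CPM (median 2.59) and was 4.59 higher. Each of these genes overlapped with other models through the low libraries. Retn (0.0209 to 10.7 CPM), Cidec (0 to 41.4 CPM) and Cfd (0 to 235 CPM) were 4.32, 4.00 and 3.92 higher on the log2 scale. Cidea, Fabp4, Lpl and Pparg had smaller differences of 2.05, 1.88, 1.71 and 0.87. Against the 2 other FVB models alone, Lep (log2 difference 3.33, edgeR adjusted p = 0.0489) and Retn (3.92, adjusted p = 0.0219) kept their calls and the other 8 genes did not. Without replicate 6, the library with the most Adipoq, 9 genes were called and Pparg was not (log2 difference 0.40).

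In MMTV-PYMT 9 of the 10 genes were higher than in the other models (31.0% of all genes tested), Pparg being the exception, and replicate 5 held much of the signal. It carried 92.0% to 98.6% of the summed CPM of the 5 libraries for Adipoq, Plin1, Cidec, Cfd, Lep and Retn, 72.9% for Fabp4, 64.8% for Lpl and 59.9% for Cidea. Adipoq was 2.05, 0.0225, 0.0503, 0.0196 and 42.6 CPM in replicates 1 to 5. Cfd was 7.05, 0, 0.705, 0.0196 and 283 CPM in the same order, and Cidec, which enlarges lipid droplets by fusing them, was 2.05, 0, 0.176, 0 and 52.6 CPM. Replicate 5 was far above the other 4, which lay within the range of the BALB/c models. Plin1 (1.44, 0, 0.101, 0.0587 and 41.7 CPM) and Lep (0.293, 0, 0, 0 and 3.38 CPM) showed the same split. Fabp4, the fatty acid chaperone of fat cells and macrophages, was 67.9, 8.44, 7.68, 7.39 and 245 CPM. With replicate 5 the log2 difference was 3.94 for Plin1, 3.58 for Cfd, 3.40 for Cidec and 3.02 ± 0.87 for Adipoq (edgeR, adjusted p = 0.00256). Without it 1 of the 10 genes, Cidea, was called higher (2.10, adjusted p = 0.000226), and Plin1, Adipoq, Lep, Fabp4, Cidec, Retn and Cfd gave log2 differences between −3.67 and −0.46, none of them called. The same library had a summed skeletal muscle marker level of 4301 CPM, against 2.17 to 611 CPM in the other 4 libraries, and the part of that tissue in the result was not tested.

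The 2225 tumours stood at the other end: 6 genes were lower there than in the other models (26.8% of all genes tested were lower) and 1, Cidea, was higher (34.2% were higher). Adipoq ran from 0.0103 to 0.719 CPM (median 0.0594, n = 10), Plin1 was at 0 in 5 of 10 libraries and Lep at 0 in 8. The log2 difference was −4.26 ± 1.37 for Cfd (edgeR, adjusted p = 0.00557), −3.77 ± 1.21 for Adipoq (adjusted p = 0.00544) and −3.64 for Plin1. Cidec, Lep and Retn gave −3.70, −3.62 and −3.28, so that the 4 secreted products and the white fat droplet proteins Plin1 and Cidec were all lower. Fabp4 (12.9 to 40.4 CPM), Lpl (7.68 to 17.6 CPM) and Pparg (0.98 to 2.68 CPM) were within the range of the other BALB/c models, and none of these 3 was called. Replicate 3 held the highest Plin1, Lep, Cidec, Retn and Adipoq of the model, and without it the difference grew to −6.04 for Cidec, −5.95 for Cfd and −5.83 for Lep. When KPB1-A replicate 2 was left out, 2 of the 6 calls remained, Plin1 and Retn: the other KPB1-A library has 0 or 1 count of Lep, Cidec, Cfd and Adipoq, so that the mean of the reference models could barely be estimated. Of other cell markers, 9 of 10 macrophage markers were also lower in 2225 (median log2 difference −1.22, summed level 210 to 528 CPM). Of 7 adipocyte progenitor markers, 4 were lower there and 1 was higher. The part of these cells in the result was not tested.

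**Figure D2:**
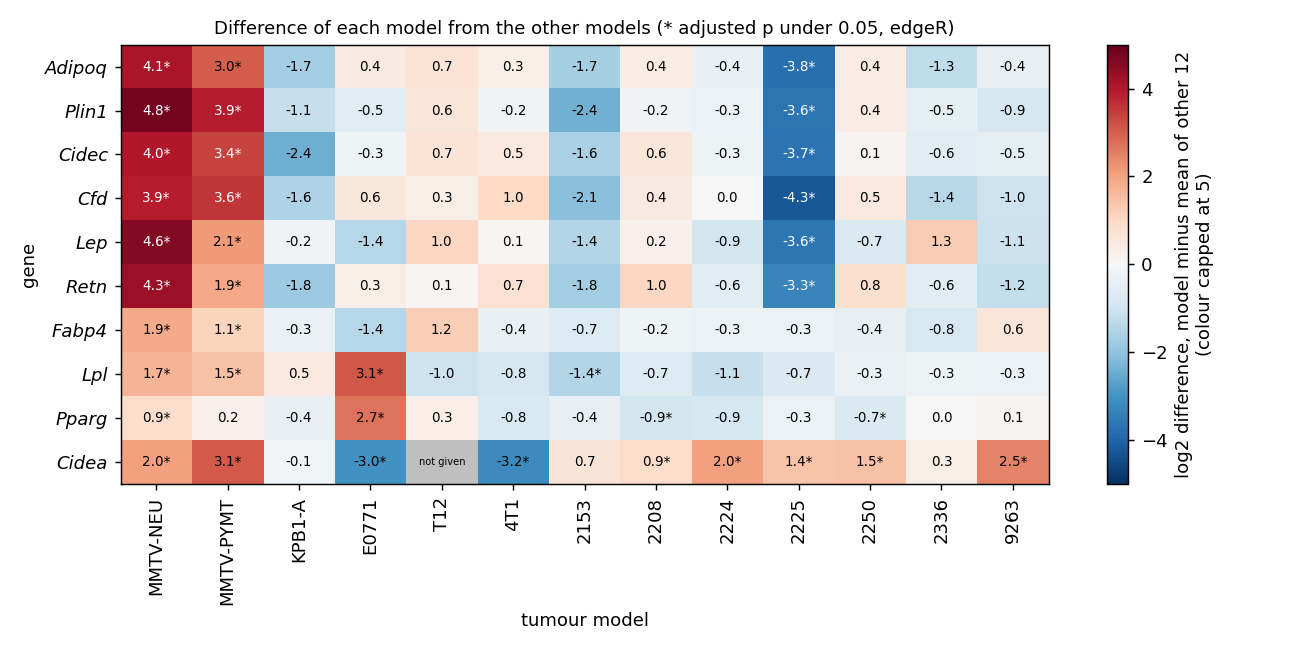
Log2 difference of each model from the mean of the other 12, for each of the 10 genes, with the value in every cell but that of Cidea in T12 (grey, 1 count in the model), an asterisk where the adjusted p is under 0.05, and colour capped at 5. The MMTV-NEU column is positive for all 10 genes, the 2225 column is negative for all but Cidea, and Cidea is negative in E0771 and 4T1.

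Across the other 10 models the 6 genes Adipoq, Plin1, Cidec, Cfd, Lep and Retn gave no call in either direction. In 2336 and KPB1-A none of the 10 genes was called by edgeR (0 also at an unadjusted p under 0.05, and 0 with DESeq2 and limma), where 30.2% and 24.9% of all genes tested were higher and 25.4% and 14.4% were lower. No member was higher in 2153 (29.4% of all genes), 4T1 (25.5%) or T12 (24.4%), and none was lower in 9263 (21.9%), 2224 (14.8%), MMTV-NEU (28.4%) or MMTV-PYMT (20.5%). In E0771 the 3 libraries were close to each other: Adipoq was 2.41, 1.07 and 1.30 CPM, and Cfd was 9.67, 7.49 and 7.05 CPM. T12 was spread more widely, with Adipoq at 1.62, 0.0407 and 4.46 CPM and Cfd at 4.55, 0.0813 and 16.6 CPM. The 4T1 tumours had Adipoq at 0.167, 0.00967, 1.59, 5.42 and 0.479 CPM, replicate 4 being the highest. The T12 range alone held the Adipoq means of 10 other models. All 3 T12 libraries had muscle marker sums of 1.94 to 2.11 CPM, the lowest median of the 13 models. In 2224 all 4 libraries had counts of all 10 genes, with Adipoq at 1.08, 0.602, 2.18 and 0.127 CPM. KPB1-A had Adipoq at 0.0245 and 0.793 CPM. In 2336 the genes did not go together: replicate 4 had Cidec at 0.787 CPM and Lep at 0.367 CPM beside Adipoq at 0.0262 CPM and Cfd at 0.0524 CPM, whereas replicate 3 was the highest of that model for Plin1, Adipoq, Lep, Cidec, Retn and Cfd.

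Fabp4 was present in every library, from 2.93 to 245 CPM with a median of 20.95 CPM. Its model means ran from 12.7 ± 1.08 CPM in E0771 (SD, n = 3) through 73.7 ± 25.8 CPM in T12 (n = 3) to 99.4 ± 96.0 CPM in MMTV-NEU (n = 8). T12 had 45.3, 95.5 and 80.3 CPM, so that its replicate 2, with Adipoq at 0.0407 CPM and Plin1 at 0, had the most Fabp4 of the model. Fabp4 was not called in T12 against all other models (log2 difference 1.23, edgeR adjusted p = 0.0722), and was higher in T12 than in 2153, 2336 and E0771 among the pairs. T12 also had the highest median of summed macrophage markers of the 13 models, 2997 to 3675 CPM against 39.7 to 3299 CPM elsewhere, and its part in the Fabp4 level was not tested. In 9263 Fabp4 spanned 11.2 to 140 CPM.

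Lpl, the lipase that frees fatty acids from lipoproteins at the capillary wall, was also present in every library, from 3.46 to 213 CPM with a median of 12.7 CPM. E0771 was the highest model, with 112, 213 and 105 CPM, and its 3 libraries lay above all 64 BALB/c libraries, whose highest value was 45.4 CPM. The log2 difference from the other models was 3.11 ± 0.40 (edgeR, adjusted p = 3.08e-10). MMTV-NEU (11.9 to 129 CPM) and MMTV-PYMT (42.0, 37.3, 6.22, 8.86 and 174 CPM) followed, and 2153 was lower than the other models (3.46 to 12.7 CPM, log2 difference −1.45, adjusted p = 0.00338), where 23.6% of all genes tested were lower. Against the other BALB/c models alone that call was lost (−0.72, edgeR adjusted p = 0.138). With models as the replicates of a strain, Lpl was the 1 gene of the 10 that differed between the 3 FVB and the 9 BALB/c models: the model means of log2 CPM averaged 4.87 and 3.43, a difference of 1.44 ± 0.30 (limma, adjusted p = 0.0313). Of all genes tested, 0.810% were called higher in FVB and 0.560% lower. The call was lost without MMTV-NEU (1.21, adjusted p = 0.252) or without MMTV-PYMT (1.498, adjusted p = 0.125). Strain is a property of the model here, so strain and model cannot be told apart for E0771.

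Pparg was low and even in most models, with means of 0.944 to 2.79 CPM in 12 of them, and stood out in E0771. The 3 E0771 libraries had 6.78, 14.4 and 6.83 CPM, and 1 library elsewhere, the highest of MMTV-NEU at 8.82 CPM, fell inside that range. The log2 difference was 2.72 ± 0.36 (edgeR, adjusted p = 4.87e-10), and E0771 differed from each of the other 12 models in the pair tests. Lpl and Pparg were thus both high in E0771, where 29.4% of all genes tested were higher than in the other models. Fabp4, whose product carries fatty acids to the nucleus and which is a Pparg target in fat cells, had its lowest model mean there (13.9, 12.5 and 11.7 CPM), and Adipoq, Plin1, Cidec, Cfd, Lep and Retn were not called. Pparg was lower in 2208 (0.319 to 1.98 CPM, log2 difference −0.90, adjusted p = 0.00465, with 24.7% of all genes lower) and in 2250 (0.296 to 2.14 CPM, −0.71, adjusted p = 0.0284, with 27.7% lower). Against the other BALB/c models alone neither was called (−0.54, adjusted p = 0.0969, and −0.34, adjusted p = 0.319, by edgeR). E0771 also had the highest summed adipocyte progenitor marker level (560 to 651 CPM against 30.5 to 383 CPM in the other models). Among 7 progenitor markers, 4 were called higher in E0771 and 1 lower. Skeletal muscle markers were at 558 to 3474 CPM in E0771, with all 10 called higher. Of 10 macrophage markers 7 were higher and 1 lower there (median log2 difference 1.99; summed level 1705 to 3299 CPM). The part of these cells in the Lpl and Pparg levels was not tested. The gene model of Pparg overlaps Gm44079, and the sources used here do not state whether counting used strand.

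**Figure D3:**
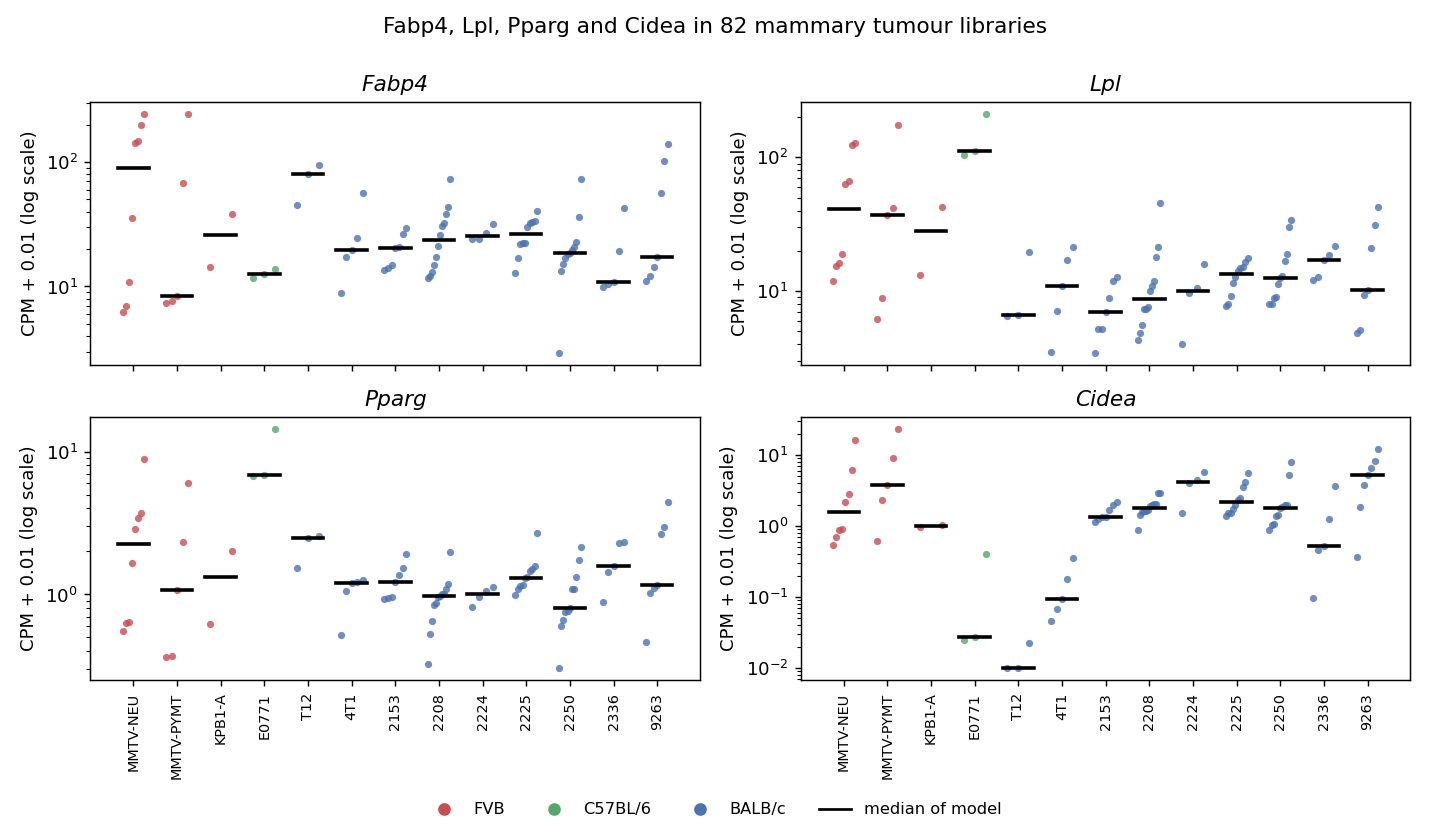
Levels of Fabp4, Lpl, Pparg and Cidea by model, as CPM + 0.01 on a log axis, with 1 point per library, colour for strain and a bar at the median. The medians of Lpl and Pparg are highest in E0771, and Cidea is near 0 in T12, 4T1 and 2 of the 3 E0771 libraries.

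Cidea, a droplet protein of brown fat that is also made by the milk-secreting epithelium, followed a pattern of its own. It was detected in 80 of 82 libraries with a median of 1.64 CPM, and its model means fell in 2 sets. The larger set of 10 models had means of 0.984 to 7.82 CPM, and 3 were low: E0771 at 0.0173, 0.393 and 0.0147 CPM, 4T1 at 0.0589, 0.348, 0.0363, 0.169 and 0.0828 CPM, and T12 with 1 count in replicate 1 and none in the other 2. The 3 low models did not overlap with 2208, 2250, 2225, 2153, MMTV-NEU, MMTV-PYMT, 2224 or KPB1-A. Cidea was lower in E0771 (log2 difference −3.02, edgeR adjusted p = 0.00585, with 26.9% of all genes lower) and in 4T1 (−3.17, adjusted p = 0.000511, with 23.6% lower), and T12 was lower than each of the other 12 models in the pair tests (23.8% of all genes were lower in T12). The E0771 call was lost without its replicate 1 (−2.53, adjusted p = 0.0526) or 3 (−2.48, adjusted p = 0.0559), and the difference was −6.09 without replicate 2. Both the E0771 and the 4T1 calls were lost without T12 replicate 1, whose 1 count is the only one in that model. A fitted fold change with 1 count in a model depends on the prior count and is not given. Cidea was higher in MMTV-PYMT (9.03, 0.608, 2.32, 3.74 and 23.4 CPM, log2 difference 3.08), 9263 (0.352 to 12.1 CPM, 2.46), MMTV-NEU (0.535 to 16.1 CPM, 2.05, and 1.23 without replicate 6), 2224 (1.505, 3.99, 4.48 and 5.70 CPM, 2.04), 2250 (1.47), 2225 (1.44) and 2208 (0.92). The shares of all genes higher were 32.5% in 9263, 24.0% in 2224, 32.1% in 2250 and 29.4% in 2208, and because the reference is a mean of log2 levels, the 3 low models enter it for all of these. T12 and E0771 were also the models with the least epithelial marker RNA, whereas 4T1 had 2733 to 3436 CPM of it. MMTV-NEU and MMTV-PYMT had the most milk gene RNA, 25298 to 57890 CPM and 10583 to 23868 CPM summed over 11 genes, against 37.1 to 14921 CPM elsewhere. The part of epithelial or milk-secreting cells in the Cidea level was not tested. The gene model of Cidea overlaps B430212C06Rik.

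All 10 genes differed among the 13 models by the F test of edgeR (adjusted p from 1.20e-11 for Lpl to 0.000315 for Cfd), as did 98.2% of all genes tested. Between pairs of models the 10 genes gave 199 calls in 780 gene and pair combinations, 25.5%, where all genes gave 52.5%. Cidea had the most, 42 of 78 pairs, followed by Lpl with 29, Pparg with 21 and Plin1 with 20, and Adipoq had the fewest with 13. Of the 13 Adipoq calls, 12 involved MMTV-NEU or 2225 and the other was 2153 against MMTV-PYMT. When models were put in order of their mean, neighbours in the order did not differ for 8 of the genes in any of 12 steps. The exceptions were the step from E0771 to MMTV-NEU for Pparg (log2 difference 1.71, adjusted p = 0.00357) and, for Cidea, the steps from KPB1-A to E0771 (2.67, adjusted p = 0.0412) and from 4T1 to T12.

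The genes differed in how much of their spread lay between models. The SD of log2 CPM among libraries of 1 model was 3.65 for Cfd, 2.92 for Cidec, 2.83 for Adipoq, 2.44 for Plin1, 1.95 for Lep and 1.94 for Retn, against a median of 0.50 over all genes tested. These 6 values lay at or above the 99.2 percentile of all genes. Fabp4 (1.20), Cidea (1.18), Lpl (0.97) and Pparg (0.83) spread less. The models accounted for 17.7% of the variance of Fabp4, 19.7% of that of Adipoq, 19.7% of that of Cfd, 21.7% of that of Cidec, 27.1% of that of Retn, 28.5% of that of Plin1 and 30.4% of that of Lep. That share was 42.6% for Pparg, 52.0% for Lpl and 70.8% for Cidea, and its median over all genes was 75.3%, so all 10 genes varied more among tumours of 1 model, relative to the models, than the median gene.

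**Figure D4:**
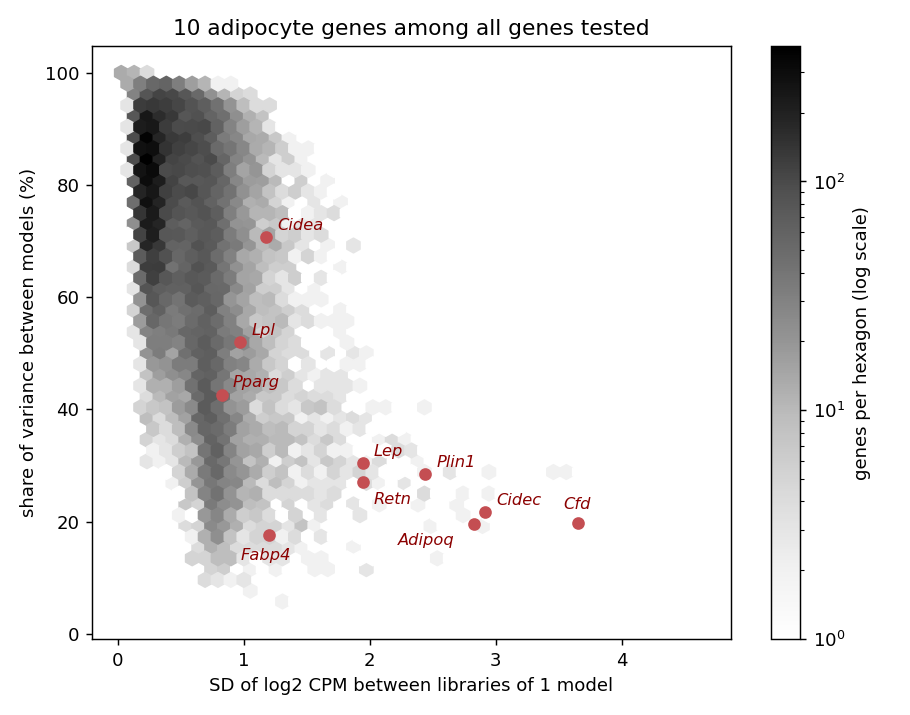
Share of variance between models (percent) against the SD of log2 CPM between libraries of 1 model, for all genes tested (grey hexagons, log scale of gene number) and the 10 genes (red). Cfd, Cidec, Adipoq, Plin1, Lep and Retn sit at the lower right, and Cidea, at 70.8%, lies near the bulk of genes.

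Within models, Adipoq was compared with the other 9 genes in each of the 6 models of at least 6 libraries, giving 54 relations in a family of 90. After Benjamini-Hochberg adjustment over the 90, 39 of the 54 were called by permutation of Pearson r and 28 by Spearman rho. The numbers of models called that follow are by Pearson r. Cfd was called in 6 of 6 models, with r from 0.970 to 0.996, and without the 2 libraries farthest from the median of Adipoq r was 0.902 to 0.990. Cidec was also called in 6 of 6 (r from 0.917 to 0.999), and Plin1 and Retn in 5 of 6. By Spearman rho Cfd was not called in 2153 (permutation, adjusted p = 0.138), nor Cidec in 2153 (0.143) or 2225 (0.0548). Plin1 was not called by rho in 2153 (permutation, adjusted p = 0.130) or 9263 (0.150), nor Retn in 2225 (0.304). Without the 2 farthest libraries the lowest r over the 6 models was 0.585 for Cidec, 0.148 for Retn and −0.534 for Plin1. In MMTV-NEU (n = 8) Plin1 followed Adipoq with r = 0.997 and rho = 0.994 (exact permutation, adjusted p = 0.000558 and 0.00179), and r was 0.990 without the 2 farthest libraries. In 2225 (n = 10), where Adipoq spanned less than 1 CPM, Plin1 gave r = 0.602 and rho = −0.097 (permutation, adjusted p = 0.153 and 0.827), and r turned to −0.534 without the 2 farthest. Fabp4, Lep, Lpl and Pparg were each called in 4 of 6 models. By Spearman rho Pparg was not called in 2208 (permutation, adjusted p = 0.0968), 2250 (0.0862) or 9263 (0.150). Neither Fabp4 (exact permutation, adjusted p = 0.150) nor Lpl (0.216) was called by rho in 9263. Fabp4 was not called in 2153 (r = 0.327) or 2225 (r = 0.172). Lpl gave r = 0.823 and rho = 0.858 in 2208 (n = 12, permutation, adjusted p = 0.00385 and 0.00547), with r = 0.801 without the 2 farthest, and r = 0.0849 in 2153. Pparg gave r = 0.911 in MMTV-NEU and −0.800 in 2153, where the latter was not called (exact permutation, adjusted p = 0.0783, n = 7). Cidea was called in 1 model, 2250, where it was lower with more Adipoq (n = 11, r = −0.660 and rho = −0.752, permutation, adjusted p = 0.0477 and 0.0324, r = −0.645 without the 2 farthest).

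**Figure D5:**
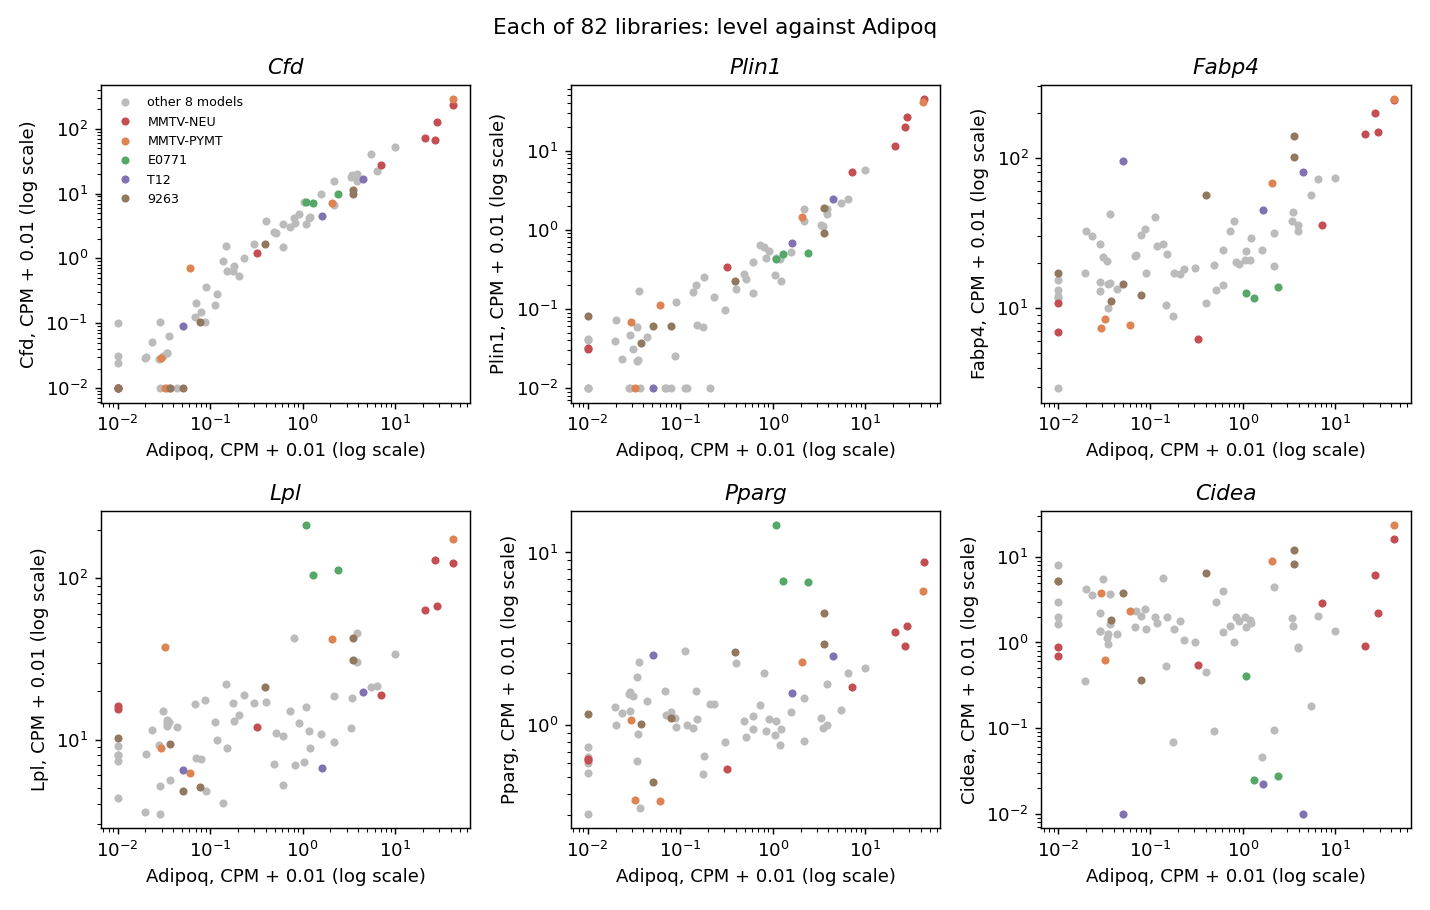
Level of Cfd, Plin1, Fabp4, Lpl, Pparg and Cidea against Adipoq in each of 82 libraries, both as CPM + 0.01 on log axes, with 5 models coloured. Cfd and Plin1 rise along a line with Adipoq, Lpl and Pparg of E0771 lie above the libraries with a similar Adipoq level, and Cidea spreads with no line.

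Markers of other cells moved with Adipoq in some models. In 9263 (n = 7) the summed skeletal muscle level gave r = 0.934 with Adipoq (exact permutation, adjusted p = 0.0152), the endothelial level r = 0.940 (adjusted p = 0.0125), the macrophage level r = 0.871 and the fibroblast level r = 0.865. By Spearman rho none of these levels was called in 9263 (exact permutation, adjusted p = 0.130, 0.0630, 0.130 and 0.216 in the same order). Their r was 0.696, 0.884, 0.682 and 0.626 without the 2 libraries farthest from the median of Adipoq. The 2 libraries of 9263 with 3.55 and 3.53 CPM of Adipoq, replicates 3 and 4, had muscle sums of 1939 and 539 CPM against 2.31 to 6.03 CPM in the other 5. In MMTV-NEU the fibroblast level gave r = 0.912 (adjusted p = 0.00824, exact permutation, n = 8) and the macrophage level r = 0.880, and muscle was not called (r = 0.687). MMTV-NEU replicate 7 had 28.5 CPM of Adipoq with a muscle sum of 4.30 CPM, and replicate 6 had 42.7 CPM with 2954 CPM. In 2153 the milk gene level was lower with more Adipoq by Pearson r (r = −0.887, adjusted p = 0.0253, exact permutation, n = 7). It was not called by Spearman rho (−0.786, exact permutation, adjusted p = 0.104), and r was −0.678 without the 2 farthest libraries. Replicates 1 to 4 of 2153 had Adipoq at 0.0185 to 0.0340 CPM (1 or 2 counts), and replicates 5 to 7 at 0.599 to 1.21 CPM. Their milk sums were 606 to 1185 and 268 to 506 CPM, and their totals 29425687 to 82066646 and 88442459 to 119835294 counts. Depth gave r = 0.761 with Adipoq in 2153, not called (exact permutation, adjusted p = 0.0809). In 2208 library depth was higher with more Adipoq (r = 0.699, adjusted p = 0.0208, permutation, n = 12). The part of these cells or of depth in the levels of the 10 genes was not tested.

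As a description over all 82 libraries, with each value taken as its deviation from the model mean, the genes most like Adipoq were ranked by Pearson r among 22847 genes. The points share library depth and preparation, and no p is given. Cfd (r = 0.977) and Cidec (0.973) came first, then Pck1 (0.970), which makes the glycerol backbone for triglyceride in fat, then Plin1 (0.953), Lep (0.913) and Retn (0.911). The next were Serpina3c (0.905), Cyp2e1 (0.891), Slc22a3 (0.877), Car3 (0.864), an abundant carbonic anhydrase of fat and muscle, Adrb3 (0.855), the adrenergic receptor of fat cells, Ces1d (0.853), Mrap (0.852), Cma1 (0.840), a mast cell protease, and Cd209f (0.837). Fabp4 ranked 35 (0.775), Lpl 41 (0.753), Pparg 89 (0.672) and Cidea 6240 (0.140). In all, 24 genes had r over 0.8, and without the 2 libraries farthest from their model mean, MMTV-PYMT replicate 5 and MMTV-NEU replicate 4, Cfd stayed at 0.973 and Plin1 at 0.945.

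Over the 13 model means the genes split in the same description. Adipoq was most like Cfd (r = 0.959), Serpina3c (0.951), Cidec (0.929), Retn (0.926) and Plin1 (0.918), and Plin1 itself was most like Aqp7 (0.959), the glycerol channel of fat cells. Cidea was most like Crb3 (0.961), Zfp750 (0.955), Igsf3 (0.947), Cited4 (0.943) and Mal2 (0.935), of which Crb3 is known as a polarity protein of epithelia and Zfp750 as a factor of epidermal differentiation. Lpl was most like Radil (0.952) and Pparg most like Igkv3-10 (0.949), genes whose highest model was also E0771. Between Lpl and Pparg r was 0.787, between Fabp4 and Adipoq 0.316, and between Cidea and Pparg −0.525. With 13 points, a single model such as E0771 can carry such a value.

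Other fat genes were read from lists that share some genes, so their counts are not independent. Lipe, Adrb3 and Aqp7 are in both the identity and the lipolysis list. The identity list also shares Plin4 with the droplet list and Cebpa with the adipogenic regulators, and Ppargc1a is in both the regulator and the brown fat list. Of 19 adipocyte identity genes tested, 17 were higher and 0 lower in MMTV-NEU (median log2 difference 3.002), where 34.0% of all genes were higher, and 15 were higher and 0 lower in MMTV-PYMT (2.30), where 31.0% were higher. In 2225, 6 were higher and 8 lower (−0.32), against 34.2% of all genes higher and 26.8% lower. The 2153 tumours had 0 higher and 10 lower (−1.39; 23.6% of all genes lower), led by Slc2a4 (−3.93), the insulin-responsive glucose transporter. In 2336, 8 were higher and 0 lower (0.57; 30.2% of all genes higher), among them Thrsp (4.19), a protein of fatty acid synthesis, and Slc2a4 (3.05). Pck1 was 4.58 higher in MMTV-NEU, 4.92 higher in MMTV-PYMT and −4.89 in 2225, and Cyp2e1 gave 4.57, 4.41 and −3.40 in the same order, all called. In E0771, 3 were higher and 5 lower (−0.22; 29.4% of all genes higher and 26.9% lower): Car3 (2.997), Mrap (2.84), an accessory protein of melanocortin receptors, and Sncg (1.40) were higher, Thrsp (−4.17) was the lowest, and Pck1 was not called (−1.31). Of 9 lipolysis genes, 7 were higher in MMTV-NEU and 8 in MMTV-PYMT, and 6 were lower and 0 higher in 2225 (median −1.29). Adrb3 was 4.46 higher in MMTV-NEU and also 2.45 higher in 2336, 1 of the models where Adipoq was not called. The calls of this and the following lists were not rerun without MMTV-PYMT replicate 5. Over the MMTV-PYMT libraries the summed identity level ran from 260 to 2153 CPM (median 530 CPM). A sum of 10 adipocyte markers, 6 of them members, was 77.3, 24.4, 51.9, 10.9 and 1006 CPM in replicates 1 to 5.

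In the lists that follow, the shares of all genes to set beside the counts are 34.0% higher and 28.4% lower in MMTV-NEU, 31.0% and 20.5% in MMTV-PYMT, 29.4% and 26.9% in E0771 and 24.9% and 14.4% in KPB1-A. Of 15 droplet and triglyceride genes, 10 were higher and 2 lower in MMTV-NEU, and 4 had r over 0.5 with Adipoq over the 82 libraries, led by Plin4 (0.830) and Plin5 (0.593), both droplet coat proteins. Hilpda, a droplet protein induced by low oxygen, had the lowest value of that list (−0.323) and was 3.62 higher in 2250. Of 12 fatty acid uptake genes, 6 were higher and 4 lower in MMTV-NEU. Cd36, a fatty acid transporter that is also made by secretory epithelium and endothelium, was 5.51 higher in MMTV-NEU and was not called in MMTV-PYMT (0.46). Vldlr, a lipoprotein receptor, had the lowest r with Adipoq of that list (−0.473). Among 16 adipogenic regulators 4 were higher and 4 lower in MMTV-NEU, and Nr1h3, a sterol receptor of macrophages and fat, was 3.50 higher in E0771. Ppargc1a, the coactivator of Pparg in mitochondrial programmes, was 2.89 higher in MMTV-NEU and −5.79 in E0771, where Pparg was highest. Among the 9 receptors and partners of the secreted products, 3 were higher and 3 lower in MMTV-NEU, and 6 were higher and 0 lower in E0771. Cfp, properdin, which acts in the same complement pathway as Cfd, was 2.40 higher in E0771 and −1.47 in MMTV-NEU.

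Of 12 brown fat genes, 8 were higher and 0 lower in MMTV-NEU, and 8 were higher and 1 lower in MMTV-PYMT. In KPB1-A 5 were higher and 0 lower (median log2 difference 1.48, against 1.59 in MMTV-NEU and 1.18 in MMTV-PYMT). Its summed brown fat level was 285 and 177 CPM in replicates 1 and 2, above every other library (at most 119.7 CPM). Most of it was Dio2, the deiodinase that activates thyroid hormone, at 237 and 136 CPM in the same order. Ucp1, the uncoupling protein that defines brown fat, ran from 0.022 to 33.6 CPM in MMTV-NEU and from 0 to 41.3 CPM in MMTV-PYMT and was at most 0.292 CPM in every library of the other models. Each of the 2 ranges rested on 1 library, MMTV-NEU replicate 6 and MMTV-PYMT replicate 5, and the next highest of those models had 1.34 and 0.629 CPM, so no fold change is given. Elovl3 gave −0.10 in MMTV-NEU, which was not called, and Kcnk3 was 1.33 higher there. Cidea, counted as a brown fat marker elsewhere, had r = 0.140 with Adipoq over the 82 libraries, where Kcnk3 had 0.634 and Ucp1 0.430. The same 2 libraries that were highest for Ucp1 were highest for Cidea, MMTV-PYMT replicate 5 at 23.4 CPM and MMTV-NEU replicate 6 at 16.1 CPM. Next for Cidea came 9263 replicate 3 at 12.1 CPM, a model with at most 0.292 CPM of Ucp1. The part of brown fat in the Cidea level was not tested.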

How the data were processed

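RNA of 82 untreated mouse mammary tumours was used. Per the labels' protocols, RNeasy Mini columns gave the RNA of homogenized, cryopreserved tumours, a Bioanalyzer served to check it, and libraries were TruSeq mRNA. The deposited gene table holds estimated counts from Salmon, and the submitters' processing notes also name STAR, SAMtools, Picard and mm10. Versions are not given in the sources used here. A second deposited table by the authors gives the same counts as a normalized signal, which was found equal to the count over the 75th percentile of non-zero counts times 1000, with 1 for a count of 0. Of the gene symbols, 95.2% were in GENCODE M21.

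Expected counts were rounded to whole numbers. In R 4.3.3 with edgeR 4.0.16 (TMM, filterByExpr by model, robust quasi-likelihood fit, 69 residual degrees of freedom), 1 mean per model was fitted over all libraries. The tests were an F test over models, each model against the unweighted mean of the other 12, and all 78 pairs, with Benjamini-Hochberg adjustment over all genes (pairs: over all genes and pairs) and a threshold of 0.05. Strains were compared with limma 3.58.1 on model means of log2 CPM (prior count 2). Relations with Adipoq used exact permutation for small models and otherwise 100000 resamples, two-sided. DESeq2 1.42.0 was an alternative. The F test, the test of a model against the others and the strain test were also run on simulated counts. Those counts were drawn with the same dispersion for all genes. That check therefore does not cover genes that spread as widely between libraries as most of these did.

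The text names all 10 genes, the 15 genes most like Adipoq, the genes most like a member over model means, and of each partner list those highest and lowest in likeness to Adipoq. Other partner genes were picked for naming with their values known. The members and lists were chosen with earlier results of these data known.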

Additional observations from a re-analysis of the deposited data

Results flagged for a closer look

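In 8 of 80 groups of 1 gene in 1 model, the highest or lowest library stood apart from the others by Dixon's criterion on the log2 scale, where chance flags about 1 in 20 groups. In 2225, replicate 3 was the highest for Plin1 (0.629 CPM, next library 0.0615), Lep (0.21 CPM, next 0.0151), Cidec (1.11 CPM, next 0.099) and Retn (0.18 CPM, next 0.0515), all below the means of MMTV-NEU. Pparg was highest in another library of that model, replicate 1, at 2.68 CPM, next 1.57. In MMTV-PYMT, replicate 5 stood apart for Retn at 4.47 CPM, next 0.0627. The lowest libraries that stood apart were 2153 replicate 4 for Retn, listed at 0 CPM with the next at 0.0561, and 4T1 replicate 1 for Pparg at 0.51 CPM, next 1.05. The Retn value came from the library of 2153 with the lowest total, 29425687 counts. A count of 0 allows up to 3 counts, so that library cannot be told from the next, which had 3 counts.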

How the results depend on the processing

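No paired analysis was possible because the library numbers in the labels are not shared between models. DESeq2 size factors changed no call on the 10 genes. Leaving out each library in turn of the models with 2 to 5 libraries kept all 10 genes different among the models. The counts then ranged from 1 to 9 higher in MMTV-PYMT, 2 to 7 lower in 2225, 1 to 2 higher and 1 to 2 lower in 2208, 0 to 1 higher in T12, 0 to 1 lower in 4T1 and 0 to 1 lower in E0771. Without MMTV-PYMT replicate 5 the log2 differences of that model turned from positive to −0.50 for Plin1, −1.06 for Adipoq, −1.16 for Lep, −0.46 for Fabp4, −0.92 for Cidec, −3.67 for Retn and −1.34 for Cfd, whereas the highest values with another library left out were 4.26, 3.37, 2.66, 1.39, 3.99, 2.27 and 4.12 in the same order of genes. Cidea in 4T1 and E0771 lost its call without T12 replicate 1, which leaves T12 with no count of it, and in E0771 also without replicate 1 or 3. With models of the same strain as reference, 2 genes were higher in MMTV-NEU, 1 in MMTV-PYMT (Lep turned to −0.0843), 2 in 2208 and 1 in T12, and 0 were lower in 2153, 2208 and 2250. With limma on the authors' table, the genes that differed among models numbered 6, 1 was higher in MMTV-PYMT and 1 in T12, 2 were lower in 2208, and in MMTV-PYMT Adipoq turned to −0.29, Fabp4 to −0.12, Retn to −0.14 and Cfd to −0.0667. DESeq2 gave 2 genes lower in 2153, 2 in 2208, 1 in 2224 and 2 in E0771. With MMTV-NEU and MMTV-PYMT out of the reference, an alternative chosen after seeing the data, 1 gene was higher in 2153, 2 in 2208 and 1 in T12, and 0 were lower in 2250. Leaving out the library with the most Adipoq of a larger model was also chosen after seeing the data. The FVB comparison called 0 genes without MMTV-NEU and 0 without MMTV-PYMT. Of the 54 relations with Adipoq, 36 were called with a prior count of 0.5 and 26 without the highest library of each model. Pairs of models and the model calls of the gene lists were not rerun without single libraries. Other causes of these changes were not tested. A model with a gene at 0 or 1 count gives no usable mean, and Lep was at 0 in 35 libraries.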
